A study of Mus musculus with 1298 samples.

Results

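The Fgf receptors and the Sprouty genes are 8 genes of the Fgf signalling pathway, chosen by name: *Fgfr1*, *Fgfr2*, *Fgfr3*, *Fgfr4*, *Fgfrl1*, *Spry1*, *Spry2* and *Spry4*. All 8 had a row in the count tables, among 17634 genes measured by 10x, 22894 by Smart-seq2 and 22938 in bulk libraries. The cells came from mouse embryos that carried *Pax7*-CreER and the R26R-stop-EYFP reporter, which received tamoxifen at E9.5 (75 µg per g body weight) through the mother and were harvested at E12.5, E14.5 or E16.5. All groups thus share the transgenes and the single dose. YFP marks cells in which *Pax7* drove CreER when tamoxifen was present, and the descendants of those cells, whether or not they expressed *Pax7* at harvest. Head, limbs and viscera were removed, several embryos were pooled per preparation, and the collagenase digestion was supplemented with dispase from E14.5 on. YFP+ cells were profiled by 10x 3′ libraries, 1 per day with 1017, 964 and 940 cells kept, and by full-length Smart-seq2, with 931 cells kept in all. The 6 combinations of platform and day are called pools below. Each Smart-seq2 pool sums several plates, and whether these came from separate preparations is not given in the sources used here. The p-values thus measure the spread between pools, which may be technical. With between 1 and 5 residual degrees of freedom per comparison, edgeR estimated this spread from many genes together and not from 1 gene alone.

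Fgf receptors are tyrosine kinases that bind Fgf ligands together with heparan sulfate and signal mainly through Frs2, Grb2 and Sos to Ras and the ERK kinases. *Fgfrl1* encodes a related receptor that lacks the kinase domain, and Sprouty proteins are intracellular inhibitors that are themselves induced by ERK signalling. In the somite and its derivatives Fgf signals act on the growth and differentiation of myoblasts, on dermal and skeletal progenitors and on the neural tube.

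The promoters of *Spry1* and *Spry2* are shown because the levels of both genes within a class differed widely between pools, as described below. Each is the 250 bases before the RefSeq start on GRCm38.p6, written 5′ to 3′ on the gene's strand, with capitals at CCGGAA (on either strand), a core that ETS factors such as Etv4 and Etv5 bind, and at CANNTG, the E-box bound by Myod1 and its relatives. The *Spry1* window lies at chr3:37639697-37639946 on the plus strand and that of *Spry2* at chr14:105896820-105897069 on the minus strand.
Spry1: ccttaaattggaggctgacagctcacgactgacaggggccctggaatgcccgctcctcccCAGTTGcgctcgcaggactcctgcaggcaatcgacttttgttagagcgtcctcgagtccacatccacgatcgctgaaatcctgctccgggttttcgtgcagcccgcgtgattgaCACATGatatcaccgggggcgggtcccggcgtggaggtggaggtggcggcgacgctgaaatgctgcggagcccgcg
Spry2: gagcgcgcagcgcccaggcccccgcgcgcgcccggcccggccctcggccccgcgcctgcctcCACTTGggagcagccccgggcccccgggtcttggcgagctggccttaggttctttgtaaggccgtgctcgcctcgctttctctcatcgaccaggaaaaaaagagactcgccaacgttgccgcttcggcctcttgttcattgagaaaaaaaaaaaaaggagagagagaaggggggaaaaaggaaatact
The *Spry1* window held 2 CANNTG and no CCGGAA and the *Spry2* window 1 CANNTG and no CCGGAA, while 66.2% of 32851 promoters of this length held CANNTG and 12.0% CCGGAA. In the corresponding window of *Fgfr4* there were 1 CCGGAA and 2 CANNTG. A match of letters is a description and not a binding site. RefSeq promoters matched 6 of the 8 members, all but *Fgfr1* and *Spry4*.

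Cells were clustered without 87 genes, namely the members, the pathway genes and *YFP*, so that these genes did not define the classes. Each cluster was named from a marker list. The names follow the study's classes: early and late progenitor (EP and LP), early and late muscle (EM and LM), dermal fibroblast (DF), brown adipocyte (BA), pericyte (PE), and neuron and neural progenitor (NE and NP). All 18 clusters reached a name, from 733 LP-like, 705 NE-like, 698 EM-like and 600 DF-like cells down to 58 PE-like and 21 cartilage-like cells. All 10 EM markers, 11 LM markers, 10 DF markers and 10 BA markers were detected in clusters of that name, but only 6 of 9 in the EP-like cluster. The lists overlapped between classes. Summed LP markers were 7531 CPM by 10x and 31235 CPM by Smart-seq2 in LP-like cells, and 8085.5 and 32962 CPM in DF-like cells. Summed EM markers were 2473 and 5436 CPM in LP-like cells, beside 3567 and 7518 CPM in EM-like cells. Median depth per cell was between 1608 and 5930 UMIs in the 10x libraries and between 393416 and 829590 estimated counts in Smart-seq2, so 10x values of low genes rest on few molecules. Between 10x libraries 3 cell barcodes were shared.

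**Figure D1:**
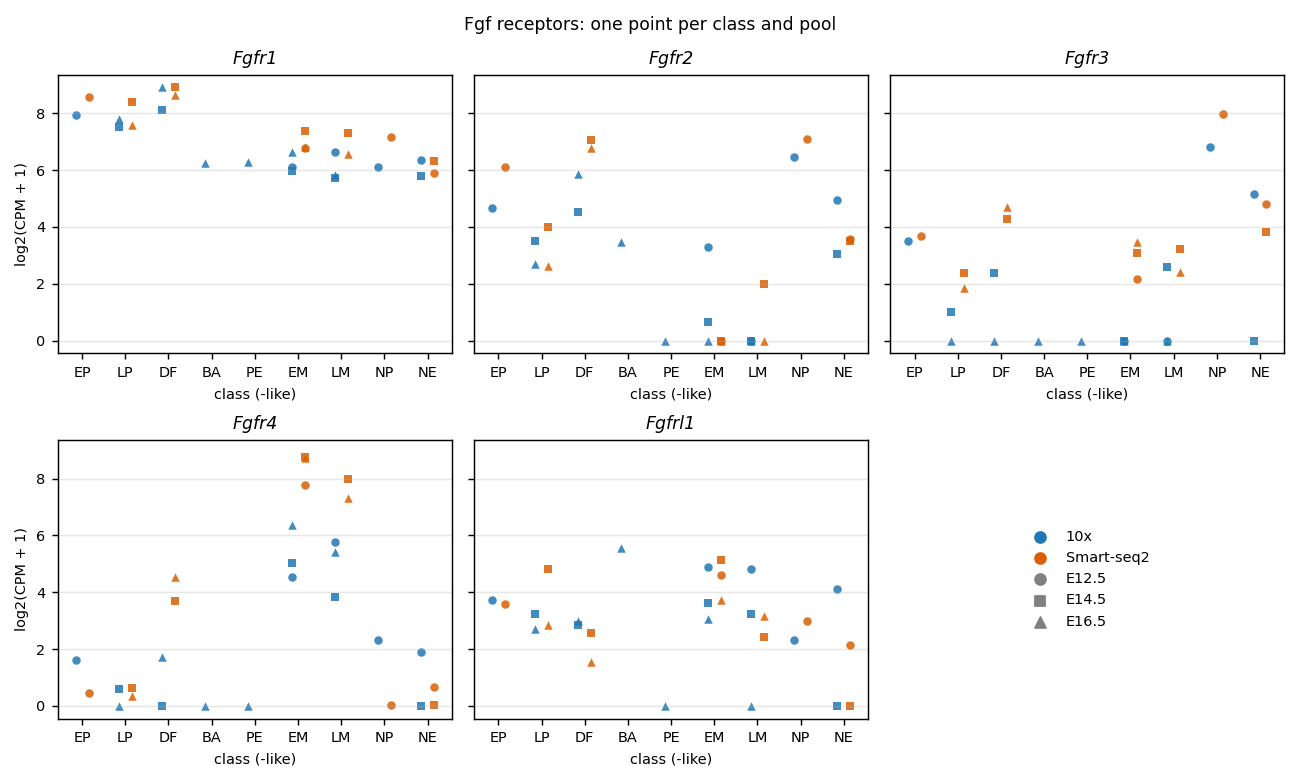
Receptor level, as log2(CPM + 1), in the summed cells of each class in each pool with at least 20 cells, with the class on the x axis. *Fgfr4* points of the EM- and LM-like classes lie above those of every other class on the same platform, *Fgfr3* is highest in NP-like cells, and *Fgfr2* is at 0 in most EM- and LM-like sums, with 8.79 CPM in EM-like cells of the 10x pool at E12.5.

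The leading receptor differed between classes and, in muscle-like cells, between platforms. Compared per kilobase of exon in Smart-seq2, which reads whole transcripts, *Fgfr4* was the highest receptor in EM-like cells at 107.7 CPM per kb, followed by *Fgfr1* at 13.4, *Fgfrl1* at 8.26, *Fgfr3* at 1.06 and *Fgfr2* at 0. *Fgfr4* also led in LM-like cells at 54.6 CPM per kb, ahead of *Fgfr1* at 11.6. By 10x, which counts molecules at the 3′ end, *Fgfr1* was instead above *Fgfr4* in both classes. The levels were 65.7 against 34.4 CPM of all 10x counts in EM-like cells and 57.4 against 21.2 CPM in LM-like cells. *Fgfr1* was the highest receptor in DF-like cells (43.1 CPM per kb), EP-like cells (36.2) and LP-like cells (25.8), with *Fgfr2* next in the DF-like (11.3) and EP-like (6.28) cells. In NP-like cells *Fgfr3* led at 37.8 CPM per kb, before *Fgfr1* at 13.99 and *Fgfr2* at 12.2. In BA-like cells *Fgfrl1*, the receptor without a kinase, was at 15.1 CPM per kb beside 13.0 for *Fgfr1*, in 15 cells only. By 10x *Fgfr1* was the higher of these, at 75.5 against 46.4 CPM.

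*Fgfr4* encodes a receptor known from myoblasts of the embryo, and lies at chromosome 13, positions 55152640 to 55168759 (GRCm38). In EM-like cells its summed level was 21.97, 31.3 and 81.1 CPM by 10x in order of day (from E12.5 to E16.5) and 215.5, 436.2 and 417.8 CPM by Smart-seq2. In the mesenchymal progenitor-like cells of the same pools (EP-like at E12.5, LP-like later) it was 2.05, 0.492 and 0 CPM by 10x and 0.385, 0.552 and 0.273 CPM by Smart-seq2. The values of the classes did not overlap on either platform. Among Smart-seq2 cells 94.4% of EM-like and 93.2% of LM-like cells had an *Fgfr4* count, against 0.952% of NE-like cells, a class not known for the gene. Median depth was 666351 estimated counts in EM-like cells and 835619 in NE-like cells. By 10x the shares were 14.6% of EM-like and 0.808% of NE-like cells, at median depths of 3359 and 3144 UMIs, and 5.43% and 0.220% after thinning each cell to 1000 UMIs.

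EM-like cells were compared with the mesenchymal progenitor-like cells of the same pool in 6 pools, to ask how the receptors of the muscle branch differ from those of the progenitors beside it. Of the 8 members 1 was higher and 3 were lower in the EM-like cells, whereas of 13956 genes tested 24.3% were called, 10% higher and 14.3% lower (edgeR quasi-likelihood test with Benjamini-Hochberg adjustment). *Fgfr4* was higher in 6 of 6 pools, by 9.56 ± 0.54 (SE) on the log2 scale with an adjusted p of 1.21e-05. With the 10x pools alone the value was 5.50 (edgeR adjusted p = 0.000134), and the progenitor-like sum of the 10x pool of E16.5 was at 0, so the fitted size is uncertain. *Fgfr1*, the most widely used receptor of mesenchyme, was lower in 6 of 6 pools.
Its levels were 68.1, 61.5 and 99.5 CPM by 10x and 110, 166.7 and 111.5 CPM by Smart-seq2 in EM-like cells, and 243.4, 180.7 and 219.3 CPM and 377.4, 335.7 and 188.8 CPM in the progenitor-like cells. The log2 fold change of *Fgfr1* was -1.29 ± 0.17 (SE) with an edgeR adjusted p of 0.00059.

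*Fgfr2*, the receptor that in epithelium and mesenchyme binds different Fgfs depending on its splice form, was at 0 in every EM-like Smart-seq2 cell, and a share of cells with a count of up to 1.85% could have gone unseen. By 10x it was 8.79, 0.570 and 0 CPM, from 5 UMIs, 4 of them at E12.5. The progenitor-like cells held 24.5, 10.3 and 5.55 CPM by 10x and 68.5, 14.8 and 5.14 CPM by Smart-seq2. *Fgfr2* was lower in EM-like cells in 6 of 6 pools, with a fitted log2 fold change of -7.72 ± 1.64 (SE) and an edgeR adjusted p of 0.00756. That fitted size depends on the prior count, since 4 of the 6 EM-like sums were at 0. *Fgfr3* was at 0 in the 3 EM-like sums by 10x and between 3.45 and 10.0 CPM by Smart-seq2, and did not pass the test (adjusted p = 0.745 by edgeR).

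*Fgfrl1* was 28.6, 11.4 and 7.37 CPM by 10x and 23.2, 33.7 and 12.4 CPM by Smart-seq2 in EM-like cells, above the progenitor-like value in 6 of 6 pools. Its log2 fold change of 0.80 ± 0.30 (SE) did not pass the edgeR test (adjusted p = 0.0752) and passed that of DESeq2 (adjusted p = 0.0432). *Spry4* was lower in EM-like cells in 6 of 6 pools.
Its levels in EM-like cells were 8.79, 6.84 and 11.1 CPM by 10x and 11.4, 40.1 and 37.5 CPM by Smart-seq2, against 38.9, 29.05 and 41.6 CPM and 27.98, 101.98 and 123.5 CPM in progenitor-like cells, with a log2 fold change of -1.62 ± 0.21 (SE) and an edgeR adjusted p of 0.000692. *Spry1* (0.67 ± 0.32) and *Spry2* (-0.70 ± 0.31) did not pass the test in log2 fold change (edgeR adjusted p = 0.156 and 0.127). For *Spry2* the 10x pools alone gave a log2 fold change of -1.21 with an edgeR adjusted p of 0.00198, and all pools but the Smart-seq2 pool of E12.5 gave -1.01 (adjusted p = 0.00229).

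The rest of the pathway was read from lists of its other genes. Of 14 Fgf ligand genes tested 2 were higher in EM-like cells, *Fgf5* (4.61 ± 1.10) and *Fgf13* (1.42 ± 0.37), and 3 were lower, *Fgf7* (-7.12 ± 1.83), *Fgf1* (-4.67 ± 0.94) and *Fgf18* (-4.39 ± 0.61), all as log2 fold change ± SE. *Fgf13* belongs to the intracellular Fgf proteins, which are not secreted. Of 15 ERK feedback and target genes *Etv1* was higher (1.22 ± 0.33), and *Dusp5* (-2.56 ± 0.56), *Flrt2* (-1.59 ± 0.38) and *Egr1* (-0.93 ± 0.21) were lower. Of 20 adaptors and kinases 0 were higher and 2 lower, *Shc1* (-1.43 ± 0.19) and *Rasa1* (-0.78 ± 0.22).
Of 16 heparan sulfate genes 2 were higher and 4 lower; *Hs6st2*, a 6-O-sulfotransferase, was higher by a log2 fold change of 2.09 ± 0.23, and the glypicans *Gpc6* (-1.84 ± 0.37), *Gpc4* (-1.64 ± 0.26) and *Gpc3* (-1.50 ± 0.16) were lower. The median log2 fold change was -1.41 over the ligands, -0.69 over the ERK targets, -0.003 over the adaptors and -0.54 over the heparan sulfate genes, beside -0.14 over all genes tested.
*Egr1* and 7 other genes that rise when tissue is dissociated (*Fos*, *Fosb*, *Jun*, *Junb*, *Atf3*, *Hspa1a* and *Hspa1b*) summed to between 905 and 6514 CPM in EM-like cells and between 1689 and 8495 CPM in EP- and LP-like cells. Of these 8, 6 were lower in EM-like cells, and their part in the Sprouty and *Egr1* values was not tested.

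**Figure D2:**
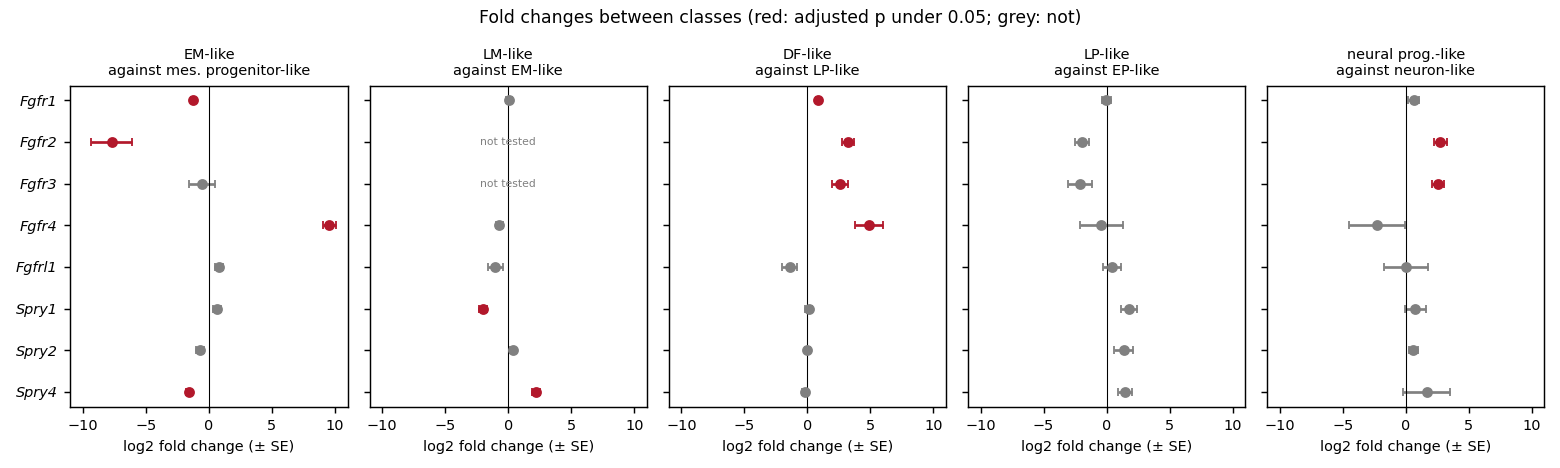
Fitted log2 fold change of each member in 5 comparisons of classes, with its standard error as a bar and red for an adjusted p under 0.05. *Fgfr4* stands at 9.56 in EM-like against progenitor-like cells, and *Spry1* and *Spry4* lie on opposite sides of 0 in LM-like against EM-like cells.

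LM-like cells express *Myog* and genes of the contractile apparatus, and were set against the EM-like cells of the same pool in 5 pools. Here 2 of 6 members tested were called, while 23.7% of 10155 genes were called in either direction. *Spry1* was 71.9, 13.4 and 13.8 CPM in LM-like cells by 10x in order of day and 14.99 and 39.5 CPM by Smart-seq2 at E14.5 and E16.5. In EM-like cells it was 79.1, 96.9 and 47.9 CPM by 10x and 113.6 and 166.2 CPM by Smart-seq2. All 5 pools held less of it in LM-like cells, with the smallest gap at E12.5. The log2 fold change was -2.01 ± 0.31 (SE) with an edgeR adjusted p of 2.35e-05.

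*Spry4* moved the other way. LM-like cells held 17.98, 26.7 and 0 CPM by 10x and 141.4 and 214.98 CPM by Smart-seq2, against 8.79, 6.84 and 11.1 CPM and 40.1 and 37.5 CPM in EM-like cells. It was higher in 4 of 5 pools, and in the remaining pool, 10x at E16.5, no UMI was seen in 39 LM-like cells, which allows up to 7.69% of cells with a UMI. The log2 fold change was 2.21 ± 0.35 (SE) with an edgeR adjusted p of 2.61e-05. *Spry2*, which LM-like cells held at between 55.3 and 180 CPM, gave a log2 fold change of 0.35 ± 0.21 that did not pass (edgeR adjusted p = 0.248).
The 3 Sprouty genes thus had unlike values between the muscle classes, with 1 lower, 1 higher and 1 not called.

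*Fgfr4* was 53.9, 13.4 and 41.4 CPM in LM-like cells by 10x and 254.7 and 158.3 CPM by Smart-seq2, below the EM-like value in 4 of 5 pools. Its log2 fold change of -0.69 ± 0.26 (SE) did not pass (edgeR adjusted p = 0.0579), and passed without the 10x pool of E12.5 (-0.97, adjusted p = 0.00277), without that of E14.5 by Smart-seq2 (-0.90, adjusted p = 0.0394) and with RLE size factors (-0.88, adjusted p = 0.0149). *Fgfr1* (0.04 ± 0.23) and *Fgfrl1* (-1.02 ± 0.60) did not pass either. *Fgfr2* and *Fgfr3* were too low to be tested: *Fgfr2* was found in 1 of 73 LM-like Smart-seq2 cells and in no LM-like cell by 10x, which allows up to 1.83% of cells with a UMI, and *Fgfr3* in 5 and 3 cells.

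Of 4 ligand genes tested *Fgf7* was higher in LM-like cells (7.84 ± 1.58), and of 11 ERK feedback and target genes *Dusp4* was higher (3.14 ± 0.55) and *Spred2* lower (-1.79 ± 0.58). Of 19 adaptors and kinases 3 were higher and 2 lower; the kinases *Map2k2* (1.12 ± 0.19) and *Map2k1* (1.07 ± 0.21), which phosphorylate ERK, were among the higher, and *Mapk3* (-1.35 ± 0.45), which encodes an ERK, was among the lower. Of 15 heparan sulfate genes 0 were higher and 6 lower, with the largest changes in *Sdc3* (-4.39 ± 1.12), *Sdc2* (-3.15 ± 0.70), *Gpc3* (-2.32 ± 0.23) and *Gpc6* (-2.28 ± 0.79). Values in this paragraph are log2 fold changes ± SE, and the lists had medians of -0.04, -0.30, 0.02 and -0.69 beside 0.06 over all genes. Of the 8 dissociation genes 4 were lower in LM-like cells, and their sum was between 731 and 2804 CPM there; their part in the *Spry1* value was not tested.

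**Figure D3:**
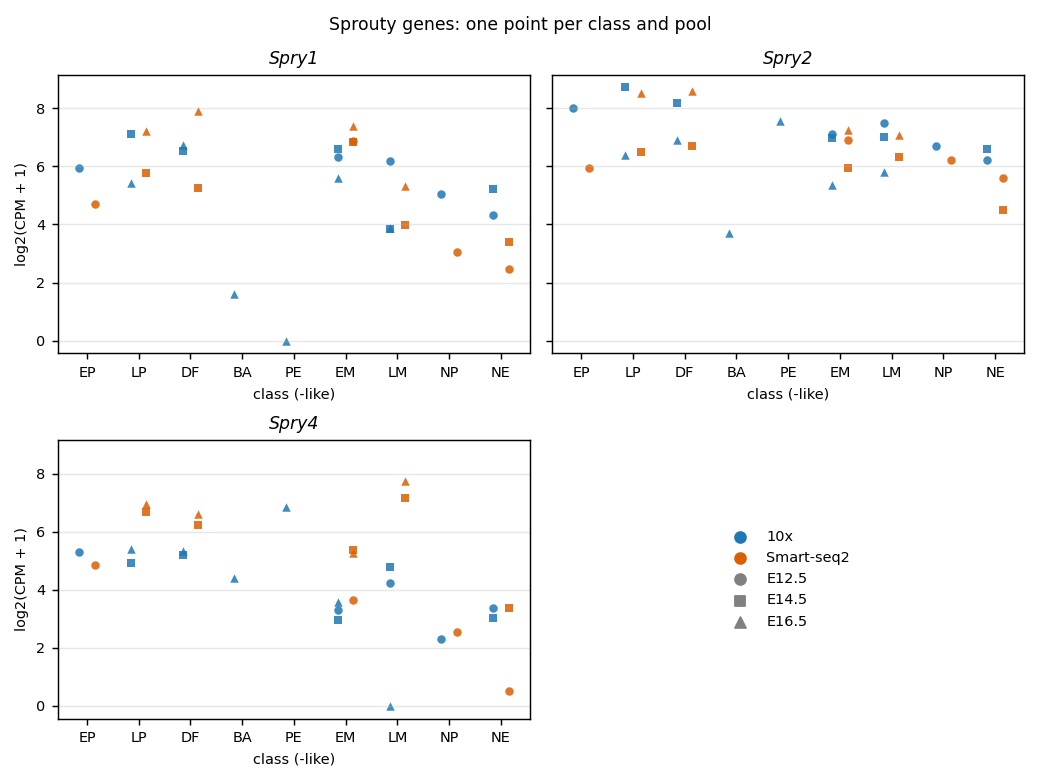
Sprouty level, as log2(CPM + 1), in each class and pool with at least 20 cells. *Spry1* is lower and *Spry4* higher in LM- than in EM-like cells in most pools, and the *Spry2* points of 1 class spread widely between pools.

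DF-like cells, the dermal branch, were set against the LP-like cells of the same pool at E14.5 and E16.5 on both platforms. In the fit of all 4 pools the 4 kinase receptors were called higher in DF-like cells, 2 of them not in every pool. None of the other 4 members was called, where 11.4% of 14181 genes were called and 5.11% were higher. Each fit without 1 pool called 2 or 3 members, and the 10x pools alone called 1. *Fgfr1* was 273.6 and 481.9 CPM by 10x and 480.8 and 394.7 CPM by Smart-seq2, against 180.7 and 219.3 CPM and 335.7 and 188.8 CPM in LP-like cells. It was higher in 4 of 4 pools by a log2 fold change of 0.81 ± 0.15 (SE; edgeR adjusted p = 0.00593). *Fgfr2* was 21.9 and 57.4 CPM by 10x and 133.7 and 107.3 CPM by Smart-seq2, against 10.3 and 5.55 CPM and 14.8 and 5.14 CPM.
The groups did not overlap on either platform, and the log2 fold change was 3.21 ± 0.48 (SE; edgeR adjusted p = 0.00195). With the 10x pools alone *Fgfr2* had a log2 fold change of 1.69 and an edgeR adjusted p of 0.0923. Among Smart-seq2 cells 73.8% of the DF-like had an *Fgfr2* count and 21 of the 140 LP-like, at median depths of 979567 and 810853 estimated counts.

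*Fgfr3* and *Fgfr4* were low in both classes. *Fgfr3* was 4.18 and 0 CPM by 10x and 18.4 and 24.98 CPM by Smart-seq2 in DF-like cells, and at most 4.24 CPM in LP-like cells. Its log2 fold change was 2.59 ± 0.60 (SE; edgeR adjusted p = 0.0246). *Fgfr4* was 0 and 2.29 CPM by 10x, from 1 UMI, and 12.0 and 22.2 CPM by Smart-seq2 in DF-like cells, against at most 0.552 CPM in LP-like cells.
It was found in 13.9% of DF-like Smart-seq2 cells, against 5.00% of LP-like and 0.952% of NE-like cells, so the *Fgfr4* difference rests on 17 cells. *Fgfr4* was higher in DF-like cells in 3 of 4 pools and lower in 1, with a log2 fold change of 4.91 ± 1.13 (SE; edgeR adjusted p = 0.0202). Without either Smart-seq2 pool both genes were too low to be tested. Each call was also lost without 1 of the 10x pools, *Fgfr3* without the 10x pool of E14.5 (2.71, adjusted p = 0.0790) and *Fgfr4* without that of E16.5 (4.89, adjusted p = 0.0673), and both at the coarser clustering (1.09 and 3.90, adjusted p = 0.492 and 0.0846).

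No Sprouty gene was called between DF- and LP-like cells, but for *Spry1* the fit averages opposite differences at the 2 days. At E14.5 it was lower in DF-like cells, at 91.9 against 137.9 CPM by 10x and 37.1 against 53.1 CPM by Smart-seq2. At E16.5 it was higher, at 105.5 against 41.6 CPM and 240.3 against 147.5 CPM. *Spry1*, *Spry2* and *Spry4* had log2 fold changes of 0.10 ± 0.28, 0.00 ± 0.18 and -0.22 ± 0.18 (SE), with edgeR adjusted p of 0.891, 0.995 and 0.535, and *Fgfrl1* of -1.41 ± 0.56 (adjusted p = 0.152). Other ERK feedback and target genes were higher in the DF-like cells, 4 of 15 against 1 lower. These were *Flrt3* (2.13 ± 0.37), the ERK phosphatase *Dusp6* (1.29 ± 0.33), *Flrt2* (0.72 ± 0.19) and 1 more gene, and *Dusp5* (-1.34 ± 0.35) was lower. Of 17 ligand genes 3 were higher and 3 lower, with the largest changes in *Fgf16* (-9.51 ± 1.74), *Fgf1* (-5.47), *Fgf18* (-5.07 ± 0.87) and *Fgf6* (4.74).
The sums of *Fgf16* in DF-like cells were all at 0, so its fitted value is no bound. Of 20 adaptors and kinases 1 was higher, *Mapk3* (1.73 ± 0.22), and 1 lower, *Nf1* (-0.97 ± 0.24). Of 17 heparan sulfate genes 3 were higher and 6 lower, led by *Sdc4* (2.61 ± 0.33), *Hs6st2* (-1.90 ± 0.27), *Gpc6* (-1.45 ± 0.20) and *Hs2st1* (-1.22 ± 0.31). Values of these lists are log2 fold changes ± SE, with medians of 0.55 for the ERK targets, -0.68, 0.13 and -0.15 for ligands, adaptors and heparan sulfate genes, and -0.04 for all genes. Of the 8 dissociation genes 1, *Atf3*, was lower.

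LP-like cells were found at E14.5 and E16.5 and EP-like cells at E12.5, so class and day cannot be told apart in this comparison, nor can the dispase that was added from E14.5 on. Of the 8 members 0 were called by edgeR, 1 by DESeq2 and 4 at an unadjusted p under 0.05, where edgeR called 6.14% of 14039 genes. *Fgfr2* was 24.5 CPM by 10x and 68.5 CPM by Smart-seq2 in EP-like cells, above all 4 LP-like values, which lay between 5.14 and 14.8 CPM. Its log2 fold change was -1.94 ± 0.55 (SE; adjusted p = 0.0542 by edgeR and 0.0158 by DESeq2, where it was -2.05), and it passed when the E14.5 or the E16.5 pool of Smart-seq2 was left out (-2.29, adjusted p = 0.0177, and -1.71, adjusted p = 0.0218). *Spry1* had the largest positive value, 1.80 ± 0.63 (edgeR adjusted p = 0.12), and passed with the former of these left out (2.01, adjusted p = 0.0236).
*Fgfr1* had a fitted value of -0.01 ± 0.35 (edgeR adjusted p = 0.991). Its mean before the fit was 231.1 CPM in LP-like and 310.4 CPM in EP-like cells, lower in LP-like cells on both platforms. Of the other pathway genes *Fgf18* (2.15 ± 0.49), *Gpc4* (2.17 ± 0.47) and *Egr1* (1.85 ± 0.44) were higher in LP-like cells and *Flrt3* (-2.11 ± 0.57) lower, while 0 of 20 adaptors and kinases were called by edgeR. Of the 8 dissociation genes, *Egr1* among them, 3 were higher in LP-like cells.

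Within the EM-like class *Fgfr4* was higher at E16.5 than at E12.5, although by Smart-seq2 it was no higher at E16.5 (417.8 CPM) than at E14.5 (436.2 CPM). Day, pool and the dispase that was added from E14.5 on cannot be told apart here. The fit over days had 2 residual degrees of freedom, so its p-values rest mostly on the spread of other genes. The *Fgfr4* level at E16.5 exceeded that at E12.5 on both platforms, with a log2 fold change of 1.62 ± 0.44 (SE) and an edgeR adjusted p of 0.0043. Of 7 members tested it alone was called, where 10.2% of 12488 genes were called and 5.43% were higher. Without the 10x pool of E12.5 the value was 1.53 (adjusted p = 0.154) and without the Smart-seq2 pool of E12.5 it was 1.77 (adjusted p = 0.542), fits that leave 1 sum at that day and assume that it varies as the others do.
At E14.5 against E12.5 the log2 fold change of *Fgfr4* was 1.02 ± 0.41 (edgeR adjusted p = 0.155). There 0 of 7 members were called by edgeR and 0 by DESeq2, 2 had an unadjusted p under 0.05, and 4.69% of genes were called. *Spry4* gave 1.71 ± 0.68 at E16.5 (adjusted p = 0.088) and *Fgfrl1* -0.98 ± 0.65 (adjusted p = 0.398). Most EM-like cells of E12.5, and of E16.5 by 10x, fell into 1 cluster, and those of E14.5, and of E16.5 by Smart-seq2, into another, so the days are not matched in cluster.

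Of 8 ligand genes 2 were higher and 3 lower in EM-like cells at E16.5 than at E12.5. *Fgf5* fell from a mean of 52.5 to 0.173 CPM (log2 fold change -7.19 ± 0.90), *Fgf9* (-5.52 ± 1.37) and *Fgf10* (-2.56 ± 0.84) fell also, while *Fgf16* (9.53 ± 2.73) was higher from a mean of 0 CPM, a fitted value that is no bound. *Etv5* (1.67 ± 0.46) and *Egr1* (1.72 ± 0.37) were higher and *Flrt3* (-2.31 ± 0.60) and *Flrt2* (-2.26 ± 0.60) lower among 15 ERK target genes. Among adaptors and kinases 1 of 20, *Frs2*, was lower (-1.93 ± 0.68), and of 16 heparan sulfate genes *Sdc4* (2.71 ± 0.53) and *Gpc1* (1.87 ± 0.44) were higher. At E14.5 against E12.5 *Fgf16* and *Gpc1* (1.57 ± 0.42) were higher and *Fgf5* (-2.84 ± 0.63), *Flrt3* (-2.29 ± 0.53) and *Flrt2* (-2.07 ± 0.56) lower. Of the 8 dissociation genes, *Egr1* among them, 7 were higher at E16.5, with a median log2 fold change of 2.88 beside 0.00 over all genes, and their part in the values of *Egr1*, *Spry4* and *Fgfr4* was not tested.

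**Figure D4:**
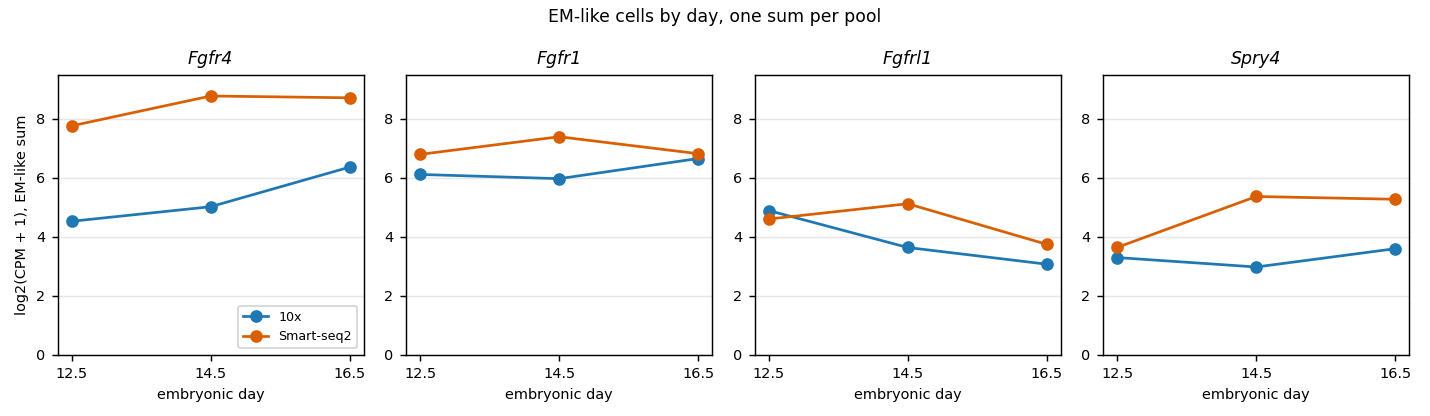
Level of 4 members, as log2(CPM + 1), in EM-like sums on the 3 days, with 1 line per platform. *Fgfr4* ends above its first value on both platforms, by 10x from 21.97 to 81.1 CPM and by Smart-seq2 from 215.5 to 417.8 CPM.

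In the neural cells of the lineage *Fgfr3* and *Fgfr2* were the members called between NP- and NE-like cells. NP-like cells, with *Sox2* and *Fabp7* among their markers, were compared with NE-like cells at E12.5 in 2 pools. *Fgfr3* was 111.6 CPM by 10x and 250.9 CPM by Smart-seq2 in NP-like cells and 34.4 and 27.01 CPM in NE-like cells. *Fgfr2* was 87.7 and 136.8 CPM against 29.7 and 11.0 CPM.
Both were higher in 2 of 2 pools, with log2 fold changes of 2.57 ± 0.45 (SE; edgeR adjusted p = 0.00882) and 2.76 ± 0.55 (adjusted p = 0.0152). These 2 of 8 members were called, both higher, where 6.35% of 13018 genes were called and 2.02% were higher. This comparison had 1 residual degree of freedom, so its p-values too rest mostly on the spread of other genes. *Fgfr1* was 67.7 and 141.7 CPM in NP-like cells and did not pass (0.64 ± 0.44, adjusted p = 0.464), nor did any Sprouty gene. *Fgf15* (3.66 ± 0.71), a ligand of the ventricular zone, and *Etv1* (3.66 ± 0.90) were higher in NP-like cells too, and *Fgf12* (-6.93 ± 1.78), another intracellular Fgf, *Spry3*, the remaining Sprouty gene (a mean of 0 against 12.6 CPM), *Dusp4* (-2.32 ± 0.49), *Sdc3* (-3.67 ± 0.81) and *Gpc2* (-2.09 ± 0.46) were lower.
Of the adaptors and kinases *Map2k1* (1.58 ± 0.39) was higher and *Grb2* (-1.61 ± 0.38) lower. *Fgfr3* was also found in 3 of 8 cartilage-like Smart-seq2 cells and in 4 of 13 by 10x. These cells were too few for a sum in any pool.

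Among the kept cells, BA-like cells were numerous enough for a comparison with LP-like cells in the 10x pool of E16.5 only, so there is no test between pools, and the intervals cover counting error alone. Few Smart-seq2 cells of this class passed the mitochondrial limit, and 14 BA-like cells of E16.5 were kept on that platform. *Fgfrl1* stood out among the receptors. It had 23 UMIs or 46.5 CPM in BA-like cells and 2 UMIs or 5.55 CPM in LP-like cells, which is 3.07 as a log2 ratio, with a 95% conditional exact interval from 1.05 to 6.20. *Fgfr1* was 74.8 against 219.3 CPM, a log2 ratio of -1.55 (interval -2.16 to -0.97).
*Spry1* was 2.02 CPM, from 1 UMI, against 41.6 CPM, with an interval of the log2 ratio from -9.76 to -1.66. *Spry2* was 12.1 against 83.3 CPM (interval -4.33 to -1.49). For *Spry4*, 20.2 against 41.6 CPM, the interval of -2.36 to 0.21 included 0. *Fgfr3* and *Fgfr4* had no UMI in either class. With all deposited cells the Smart-seq2 pool of E16.5 held 60 BA-like and 92 LP-like cells, in which *Fgfrl1* was 22.7 against 6.11 CPM, *Fgfr1* 75.97 against 185.1 CPM, *Spry1* 13.7 against 148.04 CPM, *Spry2* 28.98 against 373.5 CPM and *Spry4* 44.3 against 120.5 CPM.

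The bulk libraries of sorted Pdgfra-/Cd36+ cells from E16.5 gave the same 8 genes a deeper reading, in 24862787 and 32947290 counts. They are technical duplicates of 1 sort, so no error between embryos can be given. *Fabp4*, a gene of adipocytes, was 4576 and 3935 CPM in them and *Pax7* 0.121 and 0.152 CPM. *Fgfr1* was 106.8 and 144.2 CPM, *Fgfrl1* 29.2 and 41.4 CPM, *Spry4* 27.6 and 36.03 CPM and *Fgfr2* 28.7 and 23.1 CPM. *Spry2* was 8.73 and 15.8 CPM, *Spry1* 4.71 and 9.65 CPM, *Fgfr3* 2.65 and 2.34 CPM, and *Fgfr4* 0.322 and 0 CPM.
In these libraries fewer cells of a type and less RNA per cell cannot be told apart.

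*Spry1* and *Spry2* varied widely between pools of 1 class. In LP-like cells *Spry2* was 423.4 CPM at E14.5 and 83.3 CPM at E16.5 by 10x, and 88.7 CPM and 370.5 CPM by Smart-seq2. In DF-like cells it was 287.2 and 119.3 CPM by 10x and 102.5 and 387.8 CPM by Smart-seq2, and in EM-like cells 125.4 and 40.5 CPM against 61.3 and 152.4 CPM. In all 3 classes *Spry2* was lower at E16.5 by 10x and higher at E16.5 by Smart-seq2.
The 10x differences exceeded counting error: the log2 ratios of E16.5 to E14.5 were -2.33 (95% conditional exact interval of the raw ratio -2.92 to -1.82) in LP-like, -1.26 (-1.72 to -0.84) in DF-like and -1.61 (-2.65 to -0.76) in EM-like cells. By Smart-seq2 they were 2.05, 1.91 and 1.30. *Spry1* had this crossing in LP-like cells (137.9 to 41.6 CPM by 10x, 53.1 to 147.5 CPM by Smart-seq2) and in EM-like cells, but was level by 10x in DF-like cells (91.9 and 105.5 CPM). *Fgfr1* had the opposite signs in all 3 classes, but its 10x log2 ratio of 0.28 in LP-like cells had an interval (-0.09 to 0.63) that included 0, beside 0.81 (0.55 to 1.08) in DF-like and 0.68 (0.03 to 1.31) in EM-like cells, and *Spry4* did not cross in LP- or DF-like cells.

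Of 8921 genes with a mean of at least 10 CPM in these sums, 7.30% had the pattern of *Spry2* in all 3 classes and 6.61% that of *Fgfr1*. Day, pool and platform are tied together here, since each platform has 1 pool per day, and they cannot be told apart. Smart-seq2 cells also have a labelled sequencing batch, whose part in these values was not tested. The clusters that made up the LP-like class also differed: 95.7% of LP-like cells of the 10x pool at E16.5 were in 1 cluster that held 0.840% of those at E14.5, against 30.7% and 4.00% by Smart-seq2. Of DF-like cells the cluster that held 79.9% of the 10x pool at E16.5 held none at E14.5, against 61.6% and 4.08% by Smart-seq2. Of EM-like cells 1 cluster held 95.5% of the 10x pool at E16.5 and 0.926% at E14.5, while by Smart-seq2 another held 96.4% at E14.5 and all at E16.5.
The summed dissociation genes were 3884 and 3811 CPM in LP-like cells by 10x at E14.5 and E16.5, and 6360 and 8495 CPM by Smart-seq2. They were 4001 and 5163 CPM by 10x and 6172 and 13136 CPM by Smart-seq2 in DF-like cells, and 1004 and 1607 CPM against 3068 and 6514 CPM in EM-like cells, and their part in the *Spry2* values was not tested.

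**Figure D5:**
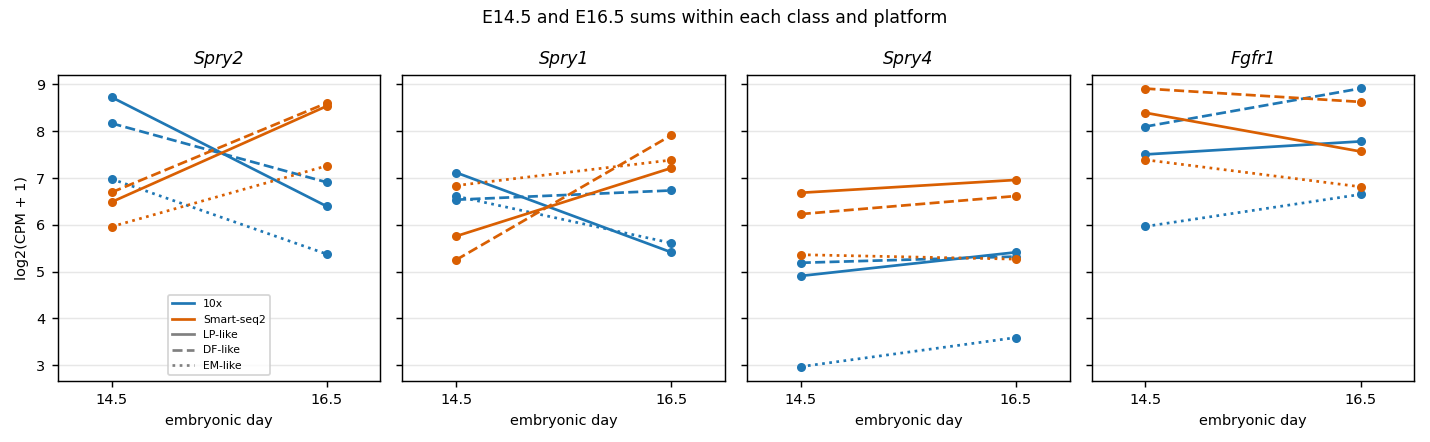
Level of 4 members, as log2(CPM + 1), at E14.5 and E16.5 in LP-, DF- and EM-like sums, with colour for the platform and line style for the class. *Spry2* is lower at E16.5 in all 3 classes by 10x and higher in all 3 by Smart-seq2, whereas *Fgfr1* has the reverse signs, with a 10x gap within counting error in LP-like cells.

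The genes whose pattern over the 29 class sums was most like each member were ranked among 9576 genes by Pearson's r of log2(CPM + 1), centred within platform. The sums share libraries, and some genes ranked are markers that named the classes, so r is a description only. For *Fgfr4* the nearest genes were *Pitx3* (r = 0.93), *Myod1* (0.93) and *Fitm1* (0.91). The former pair are transcription factors of myoblasts and, like *Twist2* below, belong to those markers. For *Fgfr3* the nearest genes were *Fgf15* (0.84), *Rfx4* (0.82) and *Msx3* (0.81). For *Fgfr1* they were *Col8a1* (0.90), *Rspo3* (0.88) and *Twist2* (0.86), and for *Fgfr2* *Ndnf* (0.87), *Ermp1* (0.83) and *Lxn* (0.82). For *Fgfrl1* they were *Pskh1* (0.84), *Foxo1* (0.82) and *Snx9* (0.79).
*Spry1* and *Spry2* both had *Sfr1* among their 3 nearest genes (0.82 and 0.83), next to *Sertad1* (0.86) and *Tmem263* (0.82) for *Spry1* and *Tceal8* (0.84) and *Xbp1* (0.81) for *Spry2*. For *Spry4* they were *Tbx15* (0.85), *Gramd3* (0.82) and *Rhoa* (0.81).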

How the data were processed

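YFP+ cells of *Pax7*-CreER embryos were analysed from the deposited count tables. For 10x, the authors deposited UMI counts per gene made with Cell Ranger, with mm10 as the build in the submitters' processing notes. For Smart-seq2, they deposited expected counts per gene, estimated with kallisto 0.44.0 on Ensembl transcripts and summed by gene. These were rounded after summing over cells. Bulk libraries were deposited as counts per gene, and 16 of their 18 columns could not be tied to a single sample, because the header lost the sign of the Thy1 sort, so they were not used and the planned bulk comparisons were not made. Only the 2 Cd36+ columns entered.

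Of 3916 deposited cells, fewer than the authors state, 3852 passed their limits. These were a *YFP* count, a mitochondrial share up to 8%, at least 4000 genes in Smart-seq2 and at most 15000 UMIs in 10x. The platforms were integrated with canonical correlation in Seurat 5.3.0 (R 4.3.3, 2000 variable genes without the members, pathway lists and *YFP*, 30 components). Clustering was by Louvain at resolution 0.8. Clusters were named by their best class, if its markers averaged a z-score of at least 0.8 and at least 3 of them were found in 5% of cells. The cartilage list was used only for a cluster that reached 0.8 for none of the other classes. Scrublet (scanpy 1.11.5) called 7, 9 and 8 doublets in the 10x libraries, which were kept.

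Counts were summed per class and pool of at least 20 cells over 15147 genes in both tables, and CPM refers to these genes unless said otherwise. edgeR 4.0.16 (TMM, filterByExpr, quasi-likelihood) tested the sums with the pool as a term, or the platform where the classes came from different days, at a Benjamini-Hochberg adjusted p of 0.05. Alternatives were DESeq2 1.42.0, RLE size factors, no filter, 10x pools only, leaving out each pool, resolutions 0.4 and 1.2, pathway genes kept in the clustering, doublets removed and, for BA- against LP-like cells, all deposited cells. The tests were checked on simulated counts with 200 changed genes. Exact intervals (95%) and the limit for a count of 0 (3 counts) cover counting error only.

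The members and lists were chosen with earlier results of these data known. All 8 members are named, and of each other list up to 4 called genes per comparison with the largest fold changes. The value of 1 gene that this rule names is not reported here. The other gene lists are Fgf ligands, ERK targets and feedback genes, adaptors and ERK kinases, heparan sulfate genes, dissociation genes and class markers. Positions and exon lengths are from GENCODE vM21 on GRCm38, and promoters from RefSeq.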

Additional observations from a re-analysis of the deposited data

Results flagged for a closer look

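*Spry2* and *Fgfr1* had differences between days of opposite sign on the 2 platforms in every one of the 3 classes that could be compared. The log2 ratio of E16.5 to E14.5 (with 1 CPM added) of *Spry2* was -2.33, -1.26 and -1.61 by 10x and 2.05, 1.91 and 1.30 by Smart-seq2 in LP-, DF- and EM-like cells. For *Fgfr1* it was 0.28 (95% conditional exact interval -0.09 to 0.63, which includes 0), 0.81 (0.55 to 1.08) and 0.68 (0.03 to 1.31) by 10x and -0.83, -0.28 and -0.58 by Smart-seq2. The difference between platforms was not tested, as each has 1 pool per day.

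Of 40 combinations of member and class with 4 to 6 sums, 3 held a sum far from the rest, where Dixon's criterion marks about 1 in 20 groups of normally spread values by chance. *Fgfr2* was 8.79 CPM in EM-like cells of the 10x pool at E12.5, from 4 UMIs, with the other sums at 0.570 CPM or 0. *Fgfr2* was 2.95 CPM in LM-like cells of the Smart-seq2 pool at E14.5, from 1 cell, with the others at 0. *Spry4* was 0.429 CPM in NE-like cells of the Smart-seq2 pool at E12.5, below the other sums at 7.19 to 9.47 CPM.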

How the results depend on the processing

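With 10x pools only, the share of tested genes called was 19.8% for LM- against EM-like, 32.1% for EM- against progenitor-like, 7.01% for DF- against LP-like and 1.41% for LP- against EP-like cells, where fewer sums and fewer genes entered. With DESeq2 it was 10.4% for LP- against EP-like, 9.73% for NP- against NE-like, 6.14% for EM-like E16.5 and 2.35% for E14.5 against E12.5, and for NP- against NE-like cells resolution 1.2 gave 4.85% and clustering with the pathway genes 5.39%. Some log2 fold changes changed sign, none of them called in either fit. For LM- against EM-like *Fgfr1* was -0.094 with RLE and with DESeq2, -0.028 with 10x only and -0.056 with pathway genes in the clustering. With 10x only, *Spry1* was -0.018 in EM- against progenitor-like, and *Spry2* -0.21 and *Spry4* 0.16 in DF- against LP-like cells. *Fgfr4* was 0.38 at resolution 0.4 in LP- against EP-like and *Fgfrl1* 0.033 without the filter in NP- against NE-like cells. For EM-like E16.5 against E12.5 *Spry2* was -0.015 with RLE and -0.13 with DESeq2, and for E14.5 *Fgfrl1* was -0.084, -0.15 and, with pathway genes in the clustering, -0.022. The cause was not tested.

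Leaving out each pool in turn gave 13.6% to 22.3% of genes called for LM- against EM-like, 12.6% to 40.3% for EM- against progenitor-like, 6.44% to 17.6% for DF- against LP-like, 0% to 14.01% for LP- against EP-like, 0.750% to 11.9% for EM-like E16.5 and 0.102% to 5.32% for E14.5 against E12.5. Log2 fold changes that changed sign ranged, for *Fgfr1*, from -0.12 to 0.065 in LM- against EM-like, -0.18 to 0.034 in LP- against EP-like and -0.053 to 0.84 in EM-like E14.5. *Fgfr3* ranged from -1.27 to 0.18 in EM- against progenitor-like and -0.098 to 1.24 at E14.5, *Fgfr4* from -0.22 to 0.43 and *Fgfrl1* from -0.48 to 0.87 in LP- against EP-like cells, and *Fgfrl1* from -0.98 to 0.60 at E14.5. *Spry1* ranged from -0.19 to 0.38 and *Spry2* from -0.099 to 0.25 in DF- against LP-like, and in EM-like cells from -0.62 to 0.96 and -1.82 to 0.90 at E16.5 and -0.12 to 0.85 and -1.25 to 0.54 at E14.5.

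The median over all genes moved by over 0.1 with the scaling, from 0.06 to -0.08 (RLE) in LM- against EM-like, 0.11 to -0.01 in LP- against EP-like, 0.00 to -0.11 at E16.5 and 0.12 to -0.02 at E14.5 in EM-like cells. The 24 ratios of BA- to LP-like cells under alternatives stayed within the counting intervals of the 10x values. Fits of NP- against NE-like cells without a pool have no residual degrees of freedom, and fits of that comparison and of the EM-like days with 10x only were not run, nor were the bulk alternatives. No paired analysis was possible because replicate numbers are given only for bulk libraries whose columns could not be told apart. Comparisons of classes within pools already hold the pool as a term.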
